A study of Mus musculus with 18 samples.

Results

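The integrin chains of cultured mouse synovial fibroblasts were followed together with the proteins that switch them on from inside the cell. The 32 genes were chosen by name: 18 alpha chains, 8 beta chains, 3 kindlins, 2 talins and Ptk2, the gene of focal adhesion kinase. All 32 were found among the 32285 genes of the deposited count table, 27 passed the filter on low counts, and 5 did not (Itgae, Itgal, Itgam, Itgax and Fermt1). The 18 libraries were made from fibroblasts sorted from the paws of mice whose genotype is given as WT, either naive or with arthritis induced by K/BxN serum (STIA, serum-transfer-induced arthritis). Naive cells were unstimulated, or received 10 ng/mL FGF2 (a fibroblast mitogen), 50 ng/mL OPN (osteopontin, a secreted integrin ligand) or both for 3 days, and STIA cells were unstimulated or received 50 ng/mL OPN. Each of these 6 groups held 3 libraries.

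An integrin is a pair of 1 alpha and 1 beta chain that spans the membrane and binds matrix or a neighbouring cell. Each chain fits only certain partners, and the pair sets the ligand: collagens, laminins, proteins with an Arg-Gly-Asp (RGD) motif such as fibronectin and osteopontin, or counter-receptors on other cells. Talin and kindlin bind the short tail of the beta chain inside the cell and shift the pair to its high-affinity state, and focal adhesion kinase then relays the signal. In the synovium, fibroblasts attach to matrix through these receptors, and in arthritis they can attach to cartilage.

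Library totals ran from 27527043 to 40357342 counts. The fibroblast genes Col1a1, Col1a2, Pdgfra, Pdgfrb, Thy1, Vim, Dcn and Lum averaged over 1 CPM in every group, and their sum ran from 18600 CPM in an FGF2 library to 69390 CPM in an unstimulated naive one. FGF2 replicate 2 stood apart, with a distance from its group (root mean square, log2) of 0.416, where all other libraries had 0.294 to 0.363. No source used here tells if replicates came from different mice or cultures, so p-values measure only the spread between these samples. Age, sex, sort gates and the time in culture of unstimulated cells were not given either. CPM is a gene's share of the TMM-scaled library size, as counts per 1e6. Fold changes are log2 ± SE from 1 edgeR quasi-likelihood fit over all libraries, two-sided, and passed at a Benjamini-Hochberg adjusted p below 0.05 over 15072 genes. The comparisons of FGF2, OPN, both factors and STIA with naive cells share the same 3 unstimulated naive libraries. Statements below that groups did not overlap, or lay above or below each other, rest on the same libraries as the calls. They are no support apart from the calls, and the share of all tested genes without overlap was not counted.

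Ordered by CPM per kb of exon, a rough scale for setting genes side by side, Itgb1 was the highest in all 6 groups. The length counts all annotated exon bases of a gene (18357 for Tln2, 9801 for Tln1), not those of the transcripts expressed. Ranks and shares on this scale are therefore approximate. Itgb1 encodes the beta chain shared by most matrix receptors and stood at 277 ± 8.09 CPM per kb (SD, n = 3) in unstimulated naive cells. Itgb5, a partner of alphav, came next there at 160 ± 9.07, ahead of the fibronectin receptor chain Itga5 at 89.4 ± 2.81, the collagen receptor chain Itga11 at 78.6 ± 4.65 and Tln1, the main talin, at 65.9 ± 1.54. None of these neighbours overlapped in their libraries. With FGF2 the order became Itgb1, Itga5, Itgb3, Itgb5, Itga6, and Itga11 dropped from rank 4 to rank 16 of 32. In unstimulated STIA cells Itga5 ranked next to Itgb1, at 190.1 ± 8.20 CPM per kb. In STIA cells with OPN the libraries of Itga5 and Itgb5, at ranks 2 and 3, overlapped.

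FGF2 moved 22 of the 27 tested genes, 14 higher and 8 lower, in a comparison in which 57.1% of all tested genes passed: 29.1% higher and 28.1% lower. At least 2-fold changes were 8 higher and 6 lower, against backgrounds of 9.43% and 10.5%. Both counts of lower genes include Itgad, whose fold change is too shallow to be read. It had 90 counts in all and stood over the filter level in only 3 libraries of 2 groups. The median log2 fold change of the 27 genes was 0.31, and of all tested genes 0.01. The calls rested on no single library: all 22 passed with any of the 6 libraries left out. In bulk RNA, fewer cells of a type and less RNA per cell cannot be told apart.

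**Figure D1:**
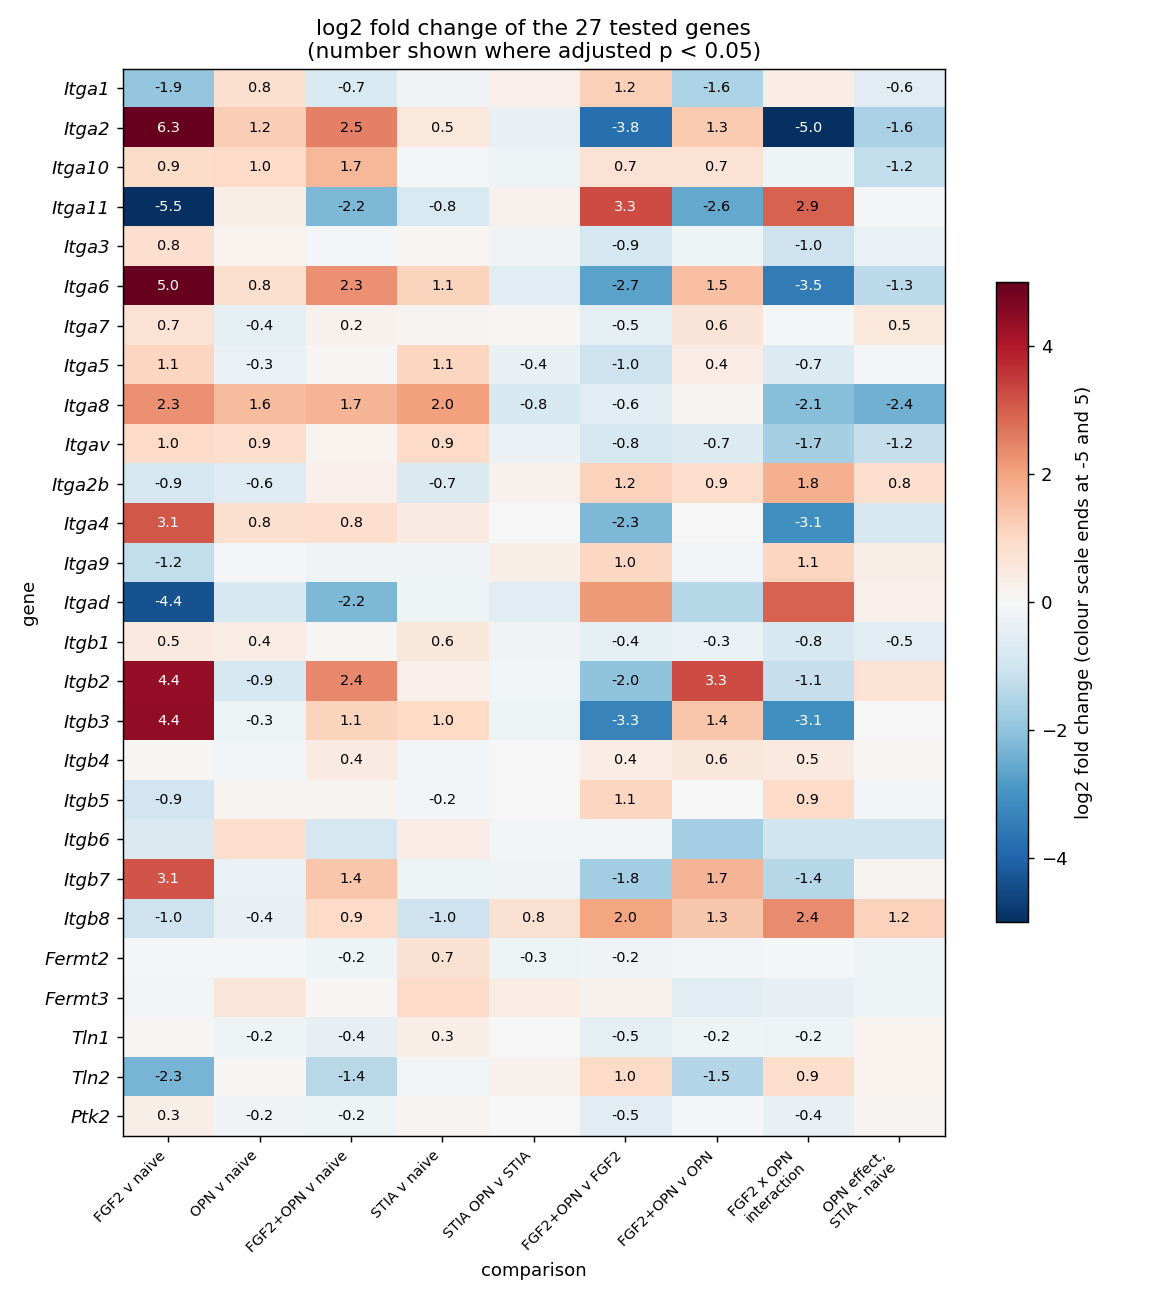
Log2 fold change of the 27 tested genes (rows, grouped by role) in 9 comparisons (columns). Red is higher and blue lower in the first-named group, and a number is printed where the adjusted p was below 0.05. FGF2 against naive cells holds 22 printed numbers, and OPN in STIA cells holds 4. The Itgad row rests on 90 counts over all libraries.

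Among collagen receptors Itga11 fell and Itga2 rose with FGF2. The alpha chains Itga1, Itga2, Itga10 and Itga11 each pair with Itgb1 and bind collagens, Itga11 mainly the fibrillar ones. Itga11 (chr9:62677826-62783982, plus strand) was at 410.4, 423 and 377 CPM in the 3 unstimulated naive libraries and at 9.23, 6.38 and 10.8 CPM with FGF2, a log2 fold change of -5.51 ± 0.19 (adjusted p 9.13e-13). Itga2 (chr13:114833081-114932100, minus strand) was at 1.80, 1.24 and 1.60 CPM without and 112, 133 and 120.1 CPM with FGF2, a rise of 6.29 ± 0.12 (adjusted p 1.44e-20). No library of one group reached the range of the other for either gene. Itga1 fell from 36.8 ± 2.79 to 9.70 ± 0.674 CPM (-1.92 ± 0.15), and Itga10, a chain best known from cartilage, rose from 3.83 ± 0.347 to 7.32 ± 0.575 CPM (0.93 ± 0.13).

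Per exon length Itga11 made up 96.4% ± 0.438 (SD, n = 3) of the 4 collagen-binding alpha transcripts in naive cells and 8.33% ± 2.32 with FGF2, while Itga2 went from 0.267% ± 0.0544 to 82.3% ± 2.76. The sum of the 4 chains went from 81.5 to 20.7 CPM per kb, so the gain of Itga2 was smaller than the loss of Itga11 on this scale. Itga2 and Itga1 are neighbours on chromosome 13, on the same strand and 20995 bases apart, and they moved in opposite directions.

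OPN alone raised 3 of the 4 collagen-binding chains in naive cells, where 15.2% of all tested genes were higher. Itga1 stood at 61.9, 48.4 and 84.7 CPM (0.82 ± 0.14), Itga2 at 3.39, 4.12 and 3.35 CPM (1.22 ± 0.15) and Itga10 at 7.66, 7.67 and 6.93 CPM (0.95 ± 0.13). All 3 lay above every unstimulated naive library, which is no support apart from the calls, with the widest spread for Itga1. Itga11 stood at 517, 441 and 551 CPM with OPN, which did not overlap the unstimulated libraries, but its log2 fold change of 0.32 ± 0.15 did not pass (adjusted p 0.125). It passed where only these 2 groups were fitted (adjusted p 0.00511) and with no filter on low counts (adjusted p 9.18e-05). The fold change was 0.32 in each fit, so these lower adjusted p-values do not stand for a larger effect.

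With both factors 3 of the 4 chains lay between the single treatments. Itga11 was at 64.3, 85.9 and 104 CPM (-2.25 ± 0.16 against naive cells), Itga2 at 9.27, 8.35 and 9.35 CPM (2.53 ± 0.14) and Itga1 at 21.6, 22.2 and 21.9 CPM (-0.75 ± 0.14). Itga11 again made up most of the 4 chains, at 77.0% ± 4.32, and Itga2 6.05% ± 1.26. Itga10 was highest here of all groups, at 12.1, 12.4 and 12.1 CPM (1.67 ± 0.12). The interaction, the OPN effect with FGF2 minus the OPN effect without it, was -4.98 ± 0.17 for Itga2 (adjusted p 9.91e-16) and 2.94 ± 0.24 for Itga11 (adjusted p 6.28e-08). For Itga1 and Itga10 the interaction was 0.36 ± 0.20 and -0.22 ± 0.17 and did not pass (adjusted p 0.16 and 0.304), although it passed for Itga1 without OPN replicate 3 (0.59, adjusted p 0.00146) and with no filter on low counts (0.34, adjusted p 0.0194).

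In unstimulated STIA cells Itga11 was at 238, 222 and 246 CPM, lower than in every unstimulated naive library (-0.78 ± 0.15, adjusted p 0.00106). Itga2 was at 2.20, 2.11 and 2.45 CPM (0.53 ± 0.17, adjusted p 0.0143), a call lost without naive replicate 2 (adjusted p 0.0855) or STIA replicate 3 (0.0545), and with limma-voom (0.0819). Itga1 and Itga10 averaged 32.2 and 3.63 CPM in STIA against 36.8 and 3.83 CPM in naive cells and did not pass, except Itga1 where only these 2 groups were fitted (-0.19, adjusted p 0.0458).

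The 250 bases before the RefSeq start sites (GRCm38.p6) of the 3 collagen-binding genes that moved most with FGF2 are printed because 2 of them are neighbours with opposite changes. The windows are chr13:114932101-114932350 (minus strand), chr13:115101965-115102214 (minus strand) and chr9:62677605-62677854 (plus strand), each read 5′ to 3′ along the gene.
Itga2: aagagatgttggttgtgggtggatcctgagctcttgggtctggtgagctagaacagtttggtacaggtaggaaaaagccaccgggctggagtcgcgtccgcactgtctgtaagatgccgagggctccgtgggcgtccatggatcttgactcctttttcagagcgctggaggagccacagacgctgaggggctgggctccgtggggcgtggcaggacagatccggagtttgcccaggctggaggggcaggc
Itga1: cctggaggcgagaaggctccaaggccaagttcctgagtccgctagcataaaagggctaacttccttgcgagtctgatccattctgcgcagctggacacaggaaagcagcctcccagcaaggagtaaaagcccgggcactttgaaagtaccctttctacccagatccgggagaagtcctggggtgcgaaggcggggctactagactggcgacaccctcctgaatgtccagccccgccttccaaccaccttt
Itga11: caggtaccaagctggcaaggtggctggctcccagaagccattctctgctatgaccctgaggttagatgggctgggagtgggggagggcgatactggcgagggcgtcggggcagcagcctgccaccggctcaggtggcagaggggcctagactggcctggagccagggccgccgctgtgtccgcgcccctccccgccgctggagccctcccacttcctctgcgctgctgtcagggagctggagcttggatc
Matches to 5 short motifs, searched on both strands, would stand in capitals: TGACTCA (AP-1), CCGGAAG and CAGGAAG (ETS factors), GGGCGG (SP1) and GGAATG (TEAD). None of the 3 windows held one, which says only that these letters are not there. Among 32851 windows of all genes the shares with a match were 4.5%, 6.9%, 10.8%, 32.7% and 12.6% in that order. A window was found for 22 of the 32 genes (24 windows), of which 1, 1, 2, 9 and 2 held a match.

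Among laminin receptors Itga6 rose furthest. Itga6, which pairs with Itgb1 or Itgb4, was at 21.6, 20.3 and 21.6 CPM in unstimulated and 664, 701 and 662 CPM in FGF2 libraries (5.0 ± 0.19, adjusted p 3.41e-12). Itga3 and Itga7, the other laminin-binding chains, rose from 43.0 ± 0.807 to 76.6 ± 14.2 CPM (0.83 ± 0.10) and from 28.4 ± 0.935 to 46.7 ± 5.51 CPM (0.71 ± 0.08). Itga6 thereby went from 17.3% ± 0.773 to 79.4% ± 3.22 of the 3 chains per exon length, and their sum from 13.4 to 93.1 CPM per kb. Itgb4, the beta chain that joins only Itga6 and is known from epithelial hemidesmosomes, averaged 4.65 CPM without and 4.87 CPM with FGF2, with overlapping libraries.

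Itga6 was also higher with OPN and in STIA cells. It stood at 35.7, 49.2 and 25.9 CPM with OPN (0.81 ± 0.17, adjusted p 0.00257), and the call was lost where only these 2 groups were fitted (adjusted p 0.0581). With both factors it was at 119.9, 92.2 and 101 CPM (2.30 ± 0.17), with an interaction of -3.50 ± 0.24 (adjusted p 1.25e-08). In STIA cells it was at 51.0, 44.9 and 40.3 CPM (1.10 ± 0.17, adjusted p 0.000179), above all naive unstimulated libraries. Itga7 fell with OPN, from 28.1, 29.5 and 27.8 to 22.4, 20.9 and 19.6 CPM (-0.44 ± 0.08), and Itga3 did not pass there or in STIA cells, at 48.4 and 46.3 CPM.

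Itga5, Itga8 and Itgav recognise the RGD motif. Itga5 (chr15:103344286-103366763, minus strand), whose product with Itgb1 is the classic fibronectin receptor, was at 431, 457 and 436 CPM in naive unstimulated libraries. It was at 936, 871 and 996 CPM with FGF2 (1.08 ± 0.08, adjusted p 5.42e-11) and at 977, 941 and 896 CPM in STIA cells (1.09 ± 0.08, adjusted p 1.42e-09). Both sets lay far above the naive unstimulated libraries. OPN lowered it to 366, 370.4 and 312 CPM (-0.34 ± 0.08), and with both factors it was at 432, 417 and 519.6 CPM, which did not pass (0.05 ± 0.08, adjusted p 0.631) except with library totals alone (0.19, adjusted p 0.0383).
The 250 bases before its RefSeq start (chr15:103366792-103367041, minus strand) are shown as the contrast to the collagen-binding windows, with the 2 matches to GGGCGG or its reverse complement in capitals.
Itga5: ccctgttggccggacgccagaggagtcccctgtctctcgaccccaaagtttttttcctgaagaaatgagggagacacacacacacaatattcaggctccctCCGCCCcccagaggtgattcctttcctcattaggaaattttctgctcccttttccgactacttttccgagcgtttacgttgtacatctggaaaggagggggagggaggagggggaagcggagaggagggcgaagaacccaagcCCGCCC

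Itgav, the alpha chain of the vitronectin and osteopontin receptors, was at 186, 154 and 186 CPM in naive cells. It reached 361, 278 and 388 CPM with FGF2 (0.97 ± 0.14), 318, 377 and 273 CPM with OPN (0.88 ± 0.14) and 348, 339 and 322 CPM in STIA cells (0.94 ± 0.14). Each of the 3 groups lay above all unstimulated naive libraries, by about 1 log2 unit or slightly less. With both factors Itgav was at 214, 218 and 165 CPM and did not pass (0.18 ± 0.14, adjusted p 0.303) except with no filter on low counts (adjusted p 0.048), and the interaction was -1.66 ± 0.20 (adjusted p 4.33e-06).

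Itga8, an RGD receptor chain of mesenchymal cells, was low but moved the same way in the 4 comparisons with unstimulated naive cells, which share those libraries. It was at 1.58, 1.38 and 1.67 CPM in naive libraries without stimulation, 6.40, 10.1 and 6.0 CPM with FGF2 (2.28 ± 0.20), 4.45, 4.22 and 5.25 CPM with OPN (1.58 ± 0.21), 5.45, 4.89 and 4.90 CPM with both (1.72 ± 0.21) and 7.57, 6.55 and 4.86 CPM in STIA cells (2.04 ± 0.21). FGF2 replicate 2 held the highest value, and without it the difference between the joint treatment and FGF2 did not pass (-0.29, adjusted p 0.133, against -0.56 and 0.00938 with it). Itga2b, the platelet chain that pairs with Itgb3, stood at 8.05 ± 1.59 CPM in naive cells, where the platelet genes Pf4 and Gp6 had no count and Ppbp was at 6.68 CPM (0.815 CPM with FGF2). Itga2b fell with FGF2 (-0.90 ± 0.15), with OPN (-0.63 ± 0.14) and in STIA cells (-0.74 ± 0.15). With both factors it averaged 9.62 ± 0.637 CPM and did not pass. The 6 platelet markers summed to 6.32 to 8.11 CPM in unstimulated naive and 8.92 to 10.7 CPM in STIA libraries. Their sums were 0.892 to 1.61 CPM with FGF2, 2.40 to 4.92 CPM with OPN and 2.46 to 4.52 CPM with both. The part of platelet RNA in the Itga2b level was not tested.

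**Figure D2:**
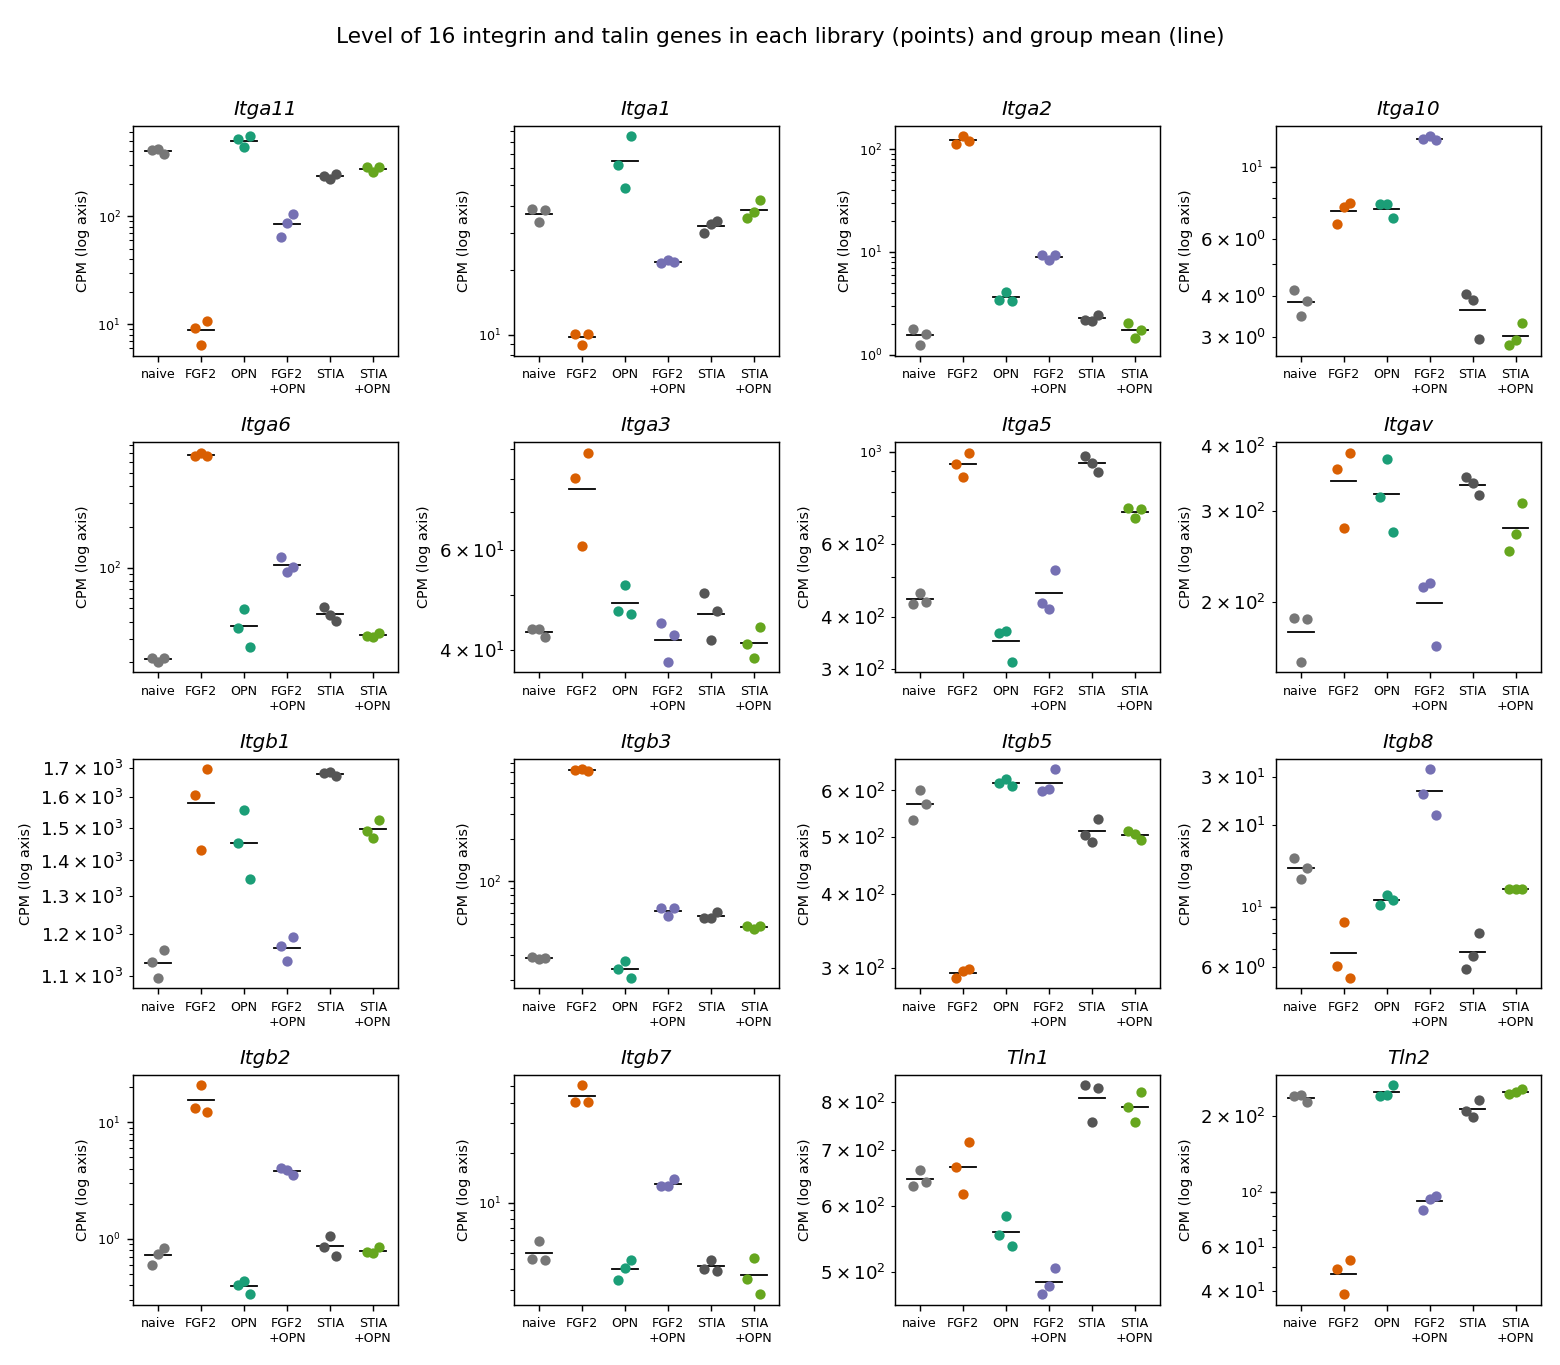
CPM (log axis) of 16 genes in each library (points) and the group mean (line), for naive cells without stimulation, with FGF2, OPN or both, and STIA cells without or with OPN. With FGF2, Itga2, Itga6 and Itgb3 lie above every other group, and Itga11 and Tln2 below.

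The beta chain Itgb3 rose strongly with FGF2. Itgb3 (chr11:104608000-104670476, plus strand), which joins Itgav into a receptor for vitronectin and osteopontin, was at 29.2, 28.0 and 28.4 CPM in unstimulated naive and 620, 632 and 616 CPM in FGF2 libraries (4.45 ± 0.08, adjusted p 1.07e-20). It was at 64.2, 56.8 and 64.8 CPM with both factors (1.12 ± 0.08) and 55.0, 55.3 and 60.9 CPM in STIA cells (1.00 ± 0.08, adjusted p 3.24e-09). The lowest FGF2 library lay far above the highest library of any other group. OPN alone gave 23.9, 27.2 and 20.6 CPM (-0.25 ± 0.08, adjusted p 0.0164), a call lost without naive replicate 1 (adjusted p 0.0522) or OPN replicate 3 (0.115).

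Itgb5, the other main partner of Itgav, went the other way with FGF2. Itgb5 was at 536, 600.1 and 569.5 CPM without and 289, 297 and 299 CPM with FGF2 (-0.95 ± 0.06, adjusted p 2e-12). With OPN and with both factors it averaged 618 and 617 CPM and did not pass (adjusted p 0.111 and 0.0893), though DESeq2 called both (0.0427 and 0.0294), as did library totals alone and the filter at 5 CPM. Of the alphav partners other than Itgb1, Itgb3 thus made up 2.92% ± 0.216 per exon length in naive cells, 55.8% ± 0.503 with FGF2, 5.62% ± 0.358 with both factors and 6.26% ± 0.119 in STIA cells, while the summed level of these partners stayed between 151 and 189 CPM per kb in group means. In STIA cells the Itgb5 change was -0.15 ± 0.06 with overlapping libraries, and the call was lost without naive replicate 2 or 3 (adjusted p 0.186 and 0.0885) or STIA replicate 1 or 2 (0.104 and 0.166). It was also lost with no filter on low counts (adjusted p 0.128) and with a replicate block (0.0517).

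**Figure D3:**
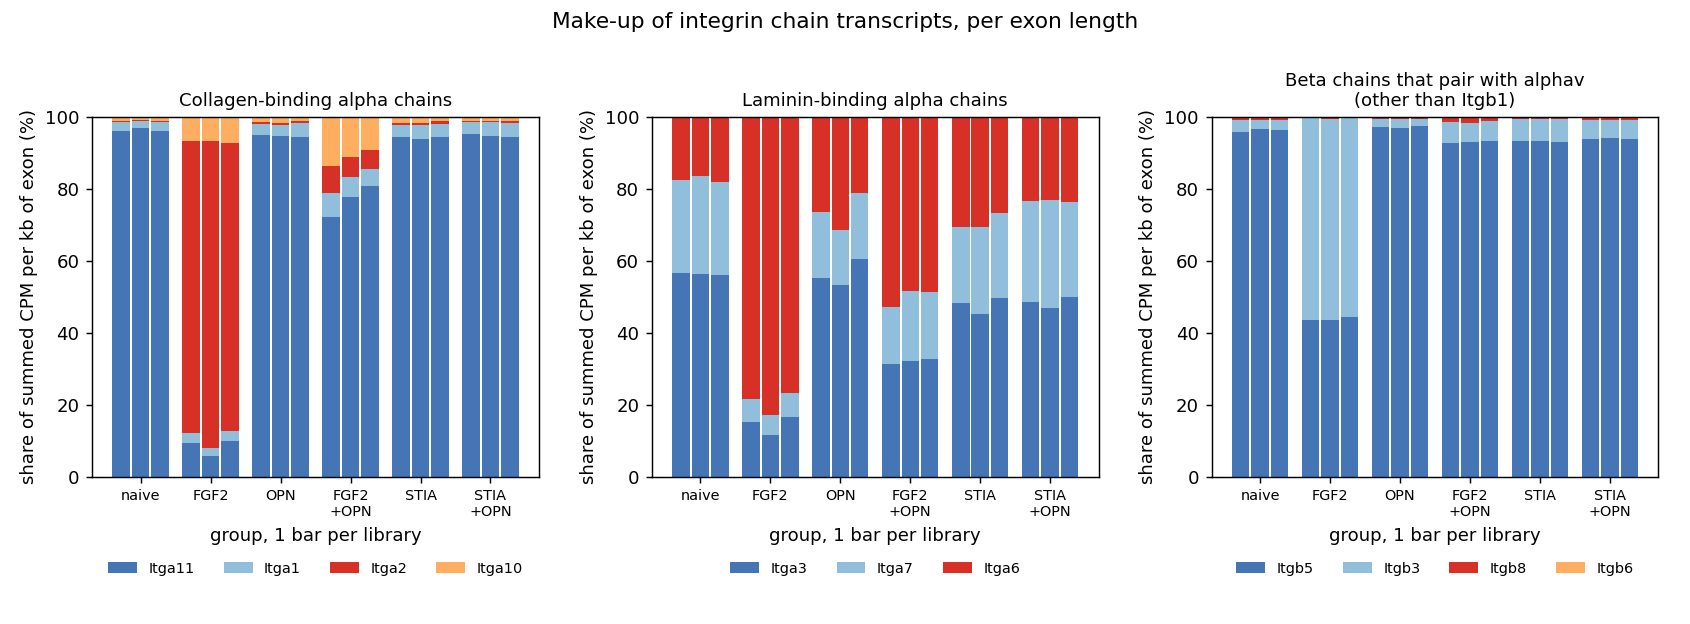
Share of each chain in the summed CPM per kb of exon (%), 1 bar per library, for 4 collagen-binding alpha chains, 3 laminin-binding alpha chains and 4 beta chains that pair with alphav. With FGF2 the bars are mostly Itga2, Itga6 and Itgb3, whereas Itga11, Itga3 and Itgb5 lead in the unstimulated libraries.

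Itgb1 itself changed by less than 1 log2 unit. It was at 1131, 1095 and 1161 CPM in naive cells, 1607, 1431 and 1695 CPM with FGF2 (0.48 ± 0.07), 1453, 1556 and 1348 CPM with OPN (0.36 ± 0.07) and 1680, 1684 and 1670 CPM in STIA cells (0.57 ± 0.07). All 3 groups lay above the naive unstimulated libraries. With both factors it was at 1170, 1135 and 1193 CPM and did not pass (0.05 ± 0.07, adjusted p 0.588) except with library totals alone (0.19, adjusted p 0.0205), with an interaction of -0.80 ± 0.09 (adjusted p 2.75e-07).

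Itgb8, which with Itgav binds and activates latent TGF-beta, fell with FGF2 from 15.1, 12.7 and 13.9 to 6.07, 8.82 and 5.48 CPM (-1.04 ± 0.15) and rose with both factors to 26.0, 32.1 and 21.9 CPM (0.94 ± 0.14). The interaction was 2.36 ± 0.21 (adjusted p 8.11e-09), and the joint libraries lay above those of every other group. In STIA cells it was at 5.92, 6.59 and 7.99 CPM (-1.03 ± 0.15). Its fall with OPN in naive cells (-0.39 ± 0.15, adjusted p 0.0487) was lost whichever of the 6 libraries was left out (adjusted p 0.0514 to 0.158). The same call was lost with RLE sizes (adjusted p 0.054), library totals alone (0.0647) and a mean of at least 5 CPM (0.0623). Itgb6, an epithelial partner of Itgav, had a total of 193 counts over all libraries and passed in no comparison.

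The beta chains of leukocyte integrins, Itgb2 and Itgb7, rose with FGF2 too. Itgb2 was at 0.600, 0.744 and 0.834 CPM without, 13.2, 20.7 and 12.3 CPM with FGF2 (4.40 ± 0.21, adjusted p 3.36e-14) and 4.07, 3.89 and 3.54 CPM with both factors (2.40 ± 0.23). Itgb7 was at 4.61, 5.85 and 4.52, 40.3, 50.7 and 40.2 and 12.5, 12.5 and 13.9 CPM in the same order (3.13 ± 0.14 and 1.38 ± 0.14). Replicate 2 was the highest FGF2 library for both, and all FGF2 libraries exceeded all unstimulated ones. The partners of Itgb2 were nearly absent: Itgal, Itgam, Itgax and Itgad totalled 48, 13, 24 and 90 counts over 18 libraries. Itgae, a partner of Itgb7, totalled 86. Itga4, which joins Itgb7 or Itgb1 and binds fibronectin and Vcam1, was at 0.915, 0.461 and 0.660 CPM without and 4.63, 7.07 and 6.03 CPM with FGF2 (3.10 ± 0.22, adjusted p 3.57e-11). Reads of Itga4 and of the overlapping antisense-strand gene Cerkl, which share 8.04% of the exon bases of Itga4, cannot be told apart without strand.

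Leukocyte markers were read beside these genes. The sum of 12 of them ran from 12 to 13.6 CPM in unstimulated naive and from 42.8 to 48.1 CPM in FGF2 libraries. Cd14 made up most of it, at 6.03 ± 0.582 and 43.8 ± 3.12 CPM, and no other marker averaged 1 CPM with FGF2. Of the 3 leukocyte markers tested, Cd14 rose (2.86 ± 0.12) and the macrophage genes Csf1r (-2.60 ± 0.23) and Lyz2 (-2.73 ± 0.28) fell. The pan-leukocyte gene Ptprc was at 0.0956 CPM with FGF2, and C1qa, Cd3e, S100a9 and Nkg7 had no count there. Epithelial markers summed to 6.73 to 12.9 CPM with FGF2 and to at most 0.347 CPM in unstimulated naive libraries, nearly all of it Krt18 (8.74 CPM), with Krt5 and Krt14 at 0. Of 4 endothelial markers tested 3 rose (Pecam1, Cdh5 and Kdr) and Tek fell, all at least 2-fold, and the summed level of the list was 13.8 to 14.4 CPM with FGF2 and 10.7 to 12.5 CPM without. Of 6 pericyte and smooth muscle markers Rgs5 rose and 4 fell, 3 of them at least 2-fold, with sums of 250.6 to 357 and 288 to 307 CPM. Of 8 fibroblast markers 2 rose and 4 fell, those 4 at least 2-fold. Of 4 Schwann cell markers 1 rose and 2 fell (Sox10 and Ngfr), and of 2 skeletal muscle markers 1 fell. The part of these markers in the FGF2 differences was not tested.

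Itga9, the chain of a receptor for osteopontin and tenascin, fell with FGF2 from 28.2, 28.0 and 28.2 to 10.9, 11.8 and 13.5 CPM (-1.22 ± 0.10) and was at 21.4, 25.6 and 26.9 CPM with both factors. The interaction was 1.08 ± 0.14 (adjusted p 9.56e-07). Itgad, called lower with FGF2, rested on 5, 11 and 10 reads in the unstimulated and 0, 0 and 1 reads in the FGF2 libraries, and shares exon bases with genes on the opposite strand.

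Of the 2 talins Tln2 fell with FGF2, and Tln1 did not pass. Talin 1 is the widespread form, and talin 2 is best known from muscle and brain. Tln2 fell from 239.9, 244 and 228 to 49.1, 38.8 and 53.1 CPM with FGF2 (-2.33 ± 0.09, adjusted p 5.65e-16) and to 84.5, 93.7 and 95.6 CPM with both factors (-1.38 ± 0.09). Its share of the 2 talins per exon length went from 16.4% ± 0.414 to 3.61% ± 0.324 with FGF2. Tln1 was at 634, 663 and 641 and 668, 621 and 717 CPM without and with FGF2, which overlapped and did not pass (0.05 ± 0.06, adjusted p 0.531). It rose in STIA cells to 838, 758 and 833 CPM (0.33 ± 0.06) and fell with both factors to 469.6, 481 and 506 CPM (-0.41 ± 0.06).

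Fermt2, the kindlin of mesenchymal cells, was raised in STIA cells, from 146, 139 and 141 to 232, 244 and 239 CPM (0.75 ± 0.07, adjusted p 4.26e-08), with no overlap. With FGF2 it was at 131, 132 and 147 CPM and did not pass (-0.06 ± 0.07, adjusted p 0.499). Fermt1, the epithelial kindlin, had 1 count in all 18 libraries, and Fermt3, the kindlin of blood cells, had 244. Ptk2 was at 78.2, 80.5 and 75.1 CPM in naive and 99.1, 91.4 and 98.8 CPM in FGF2 libraries (0.31 ± 0.06), and at 64.5, 64.5 and 70.7 CPM with both factors (-0.23 ± 0.06). These Ptk2 changes were small. The libraries of the groups did not overlap, which is no support apart from the calls, made on the same libraries. The joint-treatment call was lost with library totals alone.

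OPN on its own moved 16 of the 27 genes, 8 higher and 8 lower, where 31.7% of all tested genes passed, 15.2% higher and 16.5% lower. Of these Itga2 and Itga8 rose at least 2-fold and 0 genes fell as far (backgrounds 2.67% and 1.42%). The median was 0.07 against 0.00 for all tested genes. Beyond the genes above, Tln1 and Ptk2 fell, with log2 fold changes of -0.21 ± 0.06 and -0.17 ± 0.06, as did Itgb2 (-0.86 ± 0.31). These smaller calls depended on single libraries: Ptk2 was lost without any library except naive replicate 3 (adjusted p 0.0503 to 0.0925), Itgb2 without any except naive replicate 1 (0.0665 to 0.128), and Tln1 without naive replicate 2 (0.0537) or OPN replicate 3 (0.0577). With all libraries kept, Itgb2 was also lost with limma-voom (adjusted p 0.225) and where only the groups compared were fitted (0.0655). Ptk2 was lost with no filter on low counts (0.111). The Itga4 rise (0.81 ± 0.25) was lost without naive replicate 2 (0.0996) or OPN replicate 1 (0.0506). Of 8 fibroblast markers 0 were higher and 4 lower with OPN, of 4 Schwann cell markers 1 and 2, and of 4 endothelial markers 2 and 0. Of 3 leukocyte markers tested 1 was higher and 1 lower, of 2 platelet markers 0 and 1. Pericyte and smooth muscle markers had 0 and 1 of 6. Fibroblast markers summed to 47190 to 54080 CPM against 60840 to 69390 CPM without stimulation, and Schwann cell markers to 39.4 to 52.3 against 72.4 to 74.4 CPM. The part of these markers in the differences was not tested.

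The joint treatment moved 18 genes against unstimulated cells, 11 higher and 7 lower, with backgrounds of 49.8% in all, 23.7% and 26.1%. At least 2-fold were 7 and 3 of them, against 7.18% and 4.48%. Both counts of lower genes include the shallow Itgad, a call lost without naive replicate 2 (adjusted p 0.0579) or joint replicate 1 (0.0774). With library totals alone it was 15 higher and 5 lower, while the median log2 fold change of all tested genes was 0.136 in place of -0.01. Against FGF2 alone 9 were higher and 15 lower (backgrounds 58.4% in all, 27.3% and 31.2%), 6 and 7 of them at least 2-fold (10% and 6.91%). There Itga2, Itgb3 and Itga6 had log2 fold changes of -3.76 ± 0.10, -3.33 ± 0.08 and -2.69 ± 0.17, and Itga11, Itgb8 and Itgb5 of 3.26 ± 0.18, 1.98 ± 0.15 and 1.07 ± 0.06. The comparisons of the joint treatment share its 3 libraries. Against OPN alone 11 were higher and 6 lower (backgrounds 56.5% in all, 27.1% and 29.5%), 6 and 3 of them at least 2-fold (7.48% and 5.69%), led by Itgb2 at 3.27 ± 0.24 and Itga11 at -2.57 ± 0.16. The interaction passed for 20 genes, 7 higher and 13 lower, where 51.2% of all tested genes passed, 24.1% higher and 27.2% lower. At least 1 log2 unit in size were 4 and 9 of them, against 10% and 7.8%. With both factors against unstimulated cells, 4 of 8 fibroblast markers were higher and 4 lower. Of 6 pericyte and smooth muscle markers 3 were higher and 3 lower, and of 4 endothelial markers 0 and 1. Fibroblast markers summed to 22730 to 27590 CPM, against 60840 to 69390 CPM in unstimulated naive libraries. The part of these markers in the differences was not tested.

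STIA cells without stimulation differed from naive cells in 13 of the 27 genes, 9 higher and 4 lower, with backgrounds of 36.8% in all, 18.6% and 18.2%. The 3 that rose at least 2-fold (background 2.32%) were Itga8, Itga6 and Itga5, and Itgb3 lay at that border (1.00 ± 0.08). Itgb8 fell at least 2-fold (background 3.29%). Of the markers tested in this comparison, 1 of 2 skeletal muscle markers (Acta1) and 2 of 6 pericyte and smooth muscle markers (Mcam and Myh11) were higher. Of 4 endothelial markers 2 were higher, both at least 2-fold, and 1 lower, and of 8 fibroblast markers 1 was higher and 5 lower, 3 of them at least 2-fold. The 5 skeletal muscle markers summed to 60.8 to 78.1 CPM in STIA and 8.23 to 9.82 CPM in naive libraries, mostly Acta1, with Pax7 at 0 in STIA cells. Pericyte and smooth muscle markers summed to 340 to 411 CPM against 288 to 307 CPM, endothelial markers to 9.64 to 11.4 against 10.7 to 12.5 CPM, and fibroblast markers to 45360 to 50770 against 60840 to 69390 CPM. Their part in the integrin differences was not tested. Itga7, the muscle laminin receptor chain, averaged 31.4 CPM against 28.4 CPM and did not pass.

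OPN on STIA cells moved 4 of the 27 genes, 1 higher and 3 lower, in a comparison in which 2.17% of all tested genes passed, 1.15% higher and 1.02% lower. None of the 4 reached 2-fold, as 0.113% of all tested genes did in each direction. Itgb8 rose from 5.92, 6.59 and 7.99 to 11.6, 11.6 and 11.7 CPM (0.77 ± 0.16, adjusted p 0.0137). Itga5 fell from 977, 941 and 896 to 732, 692 and 730.1 CPM (-0.39 ± 0.08, adjusted p 0.0137), Itga8 to 3.44, 3.44 and 3.93 CPM (-0.82 ± 0.18) and Fermt2 to 199.6, 191 and 206 CPM (-0.26 ± 0.07). The groups did not overlap for any of these 4, which were picked by passing on the same libraries, so this is no further support. These calls depended on single libraries: by edgeR none of the 27 genes passed without STIA replicate 1 or 2 or STIA-with-OPN replicate 1 or 2, with 9, 10, 10 and 9 at an unadjusted p below 0.05. Without STIA replicate 3 the count was 3 and without STIA-with-OPN replicate 3 it was 2. It rose to 12 where only these 2 groups were fitted, and to 11 with no filter on low counts. DESeq2 called 5 and limma-voom 4. The skeletal muscle markers summed to 25.8 to 29.5 CPM with OPN, against 60.8 to 78.1 CPM without, and 1 of 2 tested was lower (Acta1). The endothelial gene Kdr was lower and the fibroblast gene Pdgfra higher. Of 4 Schwann cell markers 2 were higher, Ngfr among them, and 0 lower. The Schwann cell markers summed to 87.15 to 100.1 CPM with OPN and 54.01 to 67.82 CPM without. The part of these markers in the differences was not tested.

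The difference of the OPN effect between the 2 cell sources passed for 10 of the 27 genes, 3 higher and 7 lower in STIA cells, where 22.3% of all tested genes passed, 11.8% higher and 10.5% lower. At least 1 log2 unit in size were 1 and 5 of them, against 2.24% and 2.61%. For Itgav the OPN effect was 0.88 ± 0.14 in naive and -0.28 ± 0.14 in STIA cells, a difference of -1.16 ± 0.20 (adjusted p 0.000658). The value in STIA cells did not pass, but did with no filter (adjusted p 0.00578) and where only the groups compared were fitted (adjusted p 0.00621). For Itga8 it was 1.58 ± 0.21 and -0.82 ± 0.18, a difference of -2.40 ± 0.28 (adjusted p 2.64e-06). Itga2, Itga6, Itga10 and Itgb1 had differences of -1.60 ± 0.22, -1.33 ± 0.24, -1.22 ± 0.19 and -0.53 ± 0.09, each with a rise in naive cells. In STIA cells none of these 4 passed in the main fit. With no filter on low counts Itga6 passed as lower (-0.51, adjusted p 5.37e-09). Where only the groups compared were fitted, Itga6 (-0.52, adjusted p 6.84e-05) and Itgb1 (-0.17, adjusted p 0.0175) passed as lower. For OPN in STIA cells these 2 fits called 948 and 1367 of all genes, against 327 in the main fit. Itgb8 went the other way, with -0.39 ± 0.15 in naive and 0.77 ± 0.16 in STIA cells and a difference of 1.16 ± 0.21 (adjusted p 0.000523). Itga5 fell with OPN in both sources, with log2 fold changes of -0.34 ± 0.08 and -0.39 ± 0.08, and the difference was -0.05 ± 0.11 (adjusted p 0.799).

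**Figure D4:**
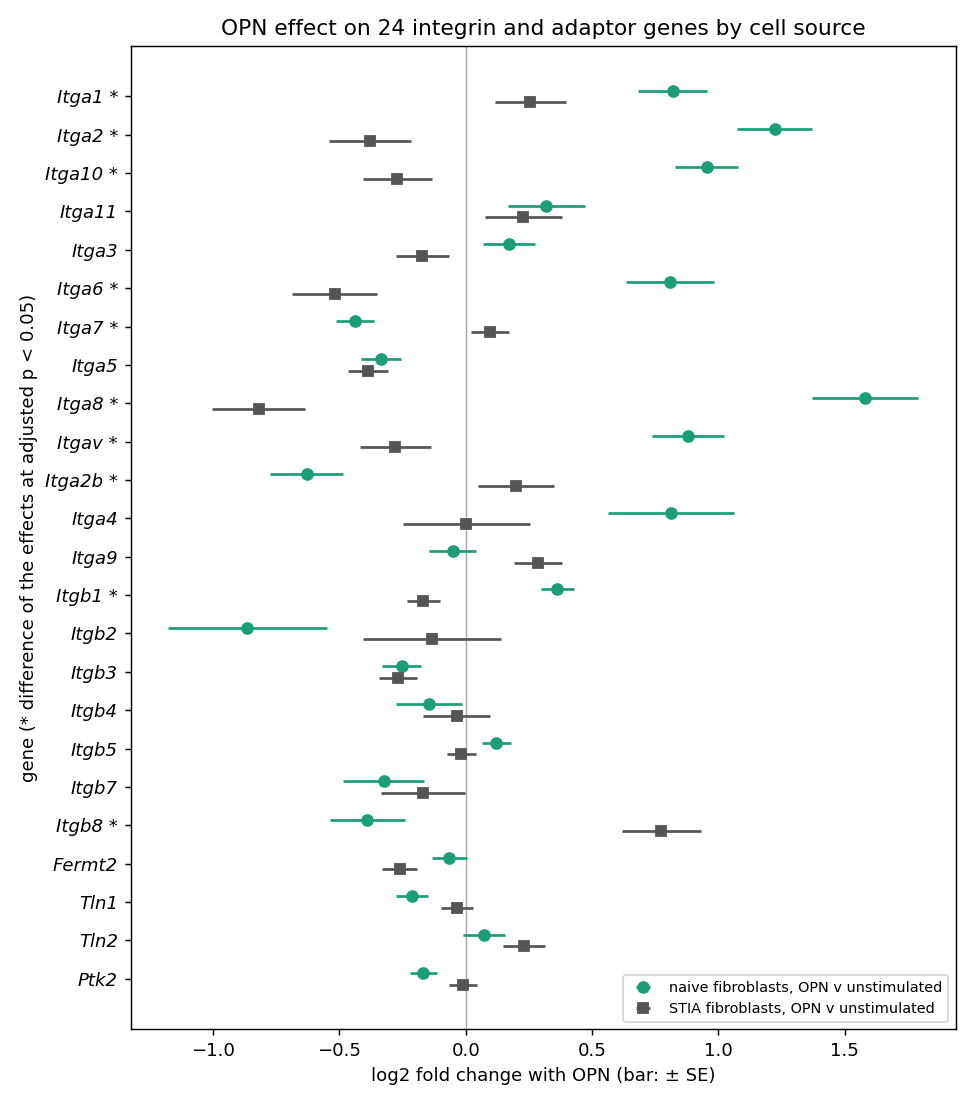
OPN effect (log2 fold change ± SE) on 24 tested genes in naive (circles) and STIA fibroblasts (squares); an asterisk marks a difference of the 2 effects at adjusted p below 0.05. Of the genes with an asterisk, Itga8, Itga2, Itga6, Itga10, Itgav and Itgb1 lie to the right of 0 in naive and to the left in STIA cells. Itgb8, Itga2b and Itga7 do the reverse.

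The wider adhesion machinery was read from 6 lists. With FGF2, 7 of 26 tested integrin ligands rose and 15 fell, with a median of -0.81 against 0.01 for all tested genes, of which 29.1% were higher and 28.1% lower. Spp1, the osteopontin gene, rose by 3.83 ± 0.16, and the collagen chain Col1a1, Postn and the thrombospondin Thbs1 fell, with log2 fold changes of -3.18 ± 0.12, -2.72 ± 0.12 and -2.51 ± 0.25. Of 26 focal adhesion adaptors and kinases 8 rose and 10 fell, beside the same 29.1% and 28.1%. The parvin Parvb (3.16 ± 0.13), the kinase Ptk2b (1.53 ± 0.07), which is the close relative of Ptk2, and the adaptor Pxn (1.28 ± 0.07) rose, and Nedd9, a docking protein, changed by -1.46 ± 0.10.

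The other 4 lists are small and are read against the same shares of all tested genes, 29.1% higher and 28.1% lower. Upstream of talin 5 of 9 genes rose with FGF2 and 1 fell. Apbb1ip, which carries talin to the membrane together with the GTPase Rap1, rose by 1.43 ± 0.10 and Rap1b by 1.05 ± 0.06, while Rassf5 changed by -1.19 ± 0.09. Among 8 inhibitors of integrin activation 3 rose and 1 fell, led by Dok1 (1.67 ± 0.10) and Kank1 (1.24 ± 0.07). Membrane partners split evenly, 5 higher and 5 lower of 10, with the urokinase receptor Plaur at 2.34 ± 0.10 and the amino acid transporter subunit Slc3a2 at -1.74 ± 0.09. Of 7 genes of integrin traffic 4 rose and 1 fell, with the clathrin adaptor Dab2 at 1.11 ± 0.09. On top of FGF2, OPN lowered Plaur (-2.60 ± 0.11), Parvb (-1.74 ± 0.12), Apbb1ip (-1.44 ± 0.10), Ptk2b (-1.31 ± 0.07) and Dok1 (-1.22 ± 0.10). Other genes of the lists rose with this addition, which raised 27.3% of all tested genes and lowered 31.2%. It raised 12 of 26 ligands and lowered 8, and for the 26 adaptors and kinases the counts were 5 and 13. For the 9 talin activators they were 2 and 6, for the 8 inhibitors 3 and 4. The 10 membrane partners had 4 and 3, and the 7 traffic genes 0 and 5.

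With OPN alone, where 15.2% of all tested genes were higher and 16.5% lower, the 26 ligands had 5 higher and 8 lower members, the 26 adaptors 5 and 10, the 9 talin activators 3 and 1, the 8 inhibitors 1 and 2, the 10 membrane partners 2 and 3 and the 7 traffic genes 2 and 3. Ccn2, a matricellular integrin ligand, rose by 1.36 ± 0.21, and Edil3, an RGD ligand of alphav, by 1.04 ± 0.09. With both factors the counts against naive cells were 6 and 15, 4 and 8, 2 and 3, 3 and 1, 3 and 2, and 3 and 0 in the same order, where 23.7% of all tested genes were higher and 26.1% lower, with Spp1 at 3.00 ± 0.16 and Col1a1 at -2.20 ± 0.11.

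In STIA cells 17 of the 26 focal adhesion adaptors and kinases were higher and 2 lower, with a median of 0.35 against -0.01 for all tested genes, of which 18.6% were higher and 18.2% lower. They included Lims2 (1.12 ± 0.14), Parvb (0.94 ± 0.13), vinculin (0.84 ± 0.09) and the tensin Tns1 (0.81 ± 0.10). Against the same shares the 26 ligands had 10 higher and 8 lower members, with Ccn2 at 1.80 ± 0.21, nephronectin (Npnt), the ligand of the Itga8 receptor, at 1.06 ± 0.17 and tenascin C (Tnc) at 1.00 ± 0.08. Among 9 talin activators 4 rose and 0 fell, among 8 inhibitors 2 and 2, among 10 membrane partners 3 and 4 and among 7 traffic genes 2 and 1. Plaur rose by 1.28 ± 0.10 and Dok1 by 1.14 ± 0.10. OPN on STIA cells, where 2.17% of all tested genes passed, called 6 genes of these lists: Fbn1 was higher, and Npnt (-0.65 ± 0.17), Parvb (-0.54 ± 0.12), Plaur (-0.54 ± 0.10), Dok1 and Src were lower. Leaving out single libraries ended each of these 6 calls at least once (adjusted p 0.0512 to 0.269).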

How the data were processed

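RNA was sequenced in 18 libraries of cultured paw fibroblasts. Raw counts per gene were deposited by the authors, made with STAR and featureCounts on GRCm38 (mm10) per the submitters' processing notes. Versions, annotation release, strandedness and the handling of multi-mapping reads were not given there, so overlapping antisense genes cannot be told apart. Of 32285 identifiers 32158 matched a symbol of GENCODE M21, and the rest took 0.029% of counts. All 32 members matched, at the same locus. The deposited Length column, summed exon bases, gave CPM per kb.

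The model was fitted with edgeR 4.0.16 in R 4.3.3: filterByExpr (15072 genes), TMM sizes, 1 mean per group and no block, robust quasi-likelihood over 18 libraries. It was tested on simulated data. DESeq2 1.42.0, limma-voom (limma 3.58.1), other scalings and filters, fewer groups, a replicate block and leaving out each replicate were alternatives. Library totals of 27527043 to 40357342 put 3 counts at 0.0743 to 0.109 CPM, which covers counting error only. No 2 replicates were identical (18 pairs, chi-square per degree of freedom 4.42 to 40.73). Same-numbered replicates were not treated as pairs in the main fit. Their deviations correlated from -0.252 to 0.251, above 0.1 in 6 of 45 pairs. Differently numbered replicates were not set beside them, so this cannot tell if replicates were paired.

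Genes named were members with an adjusted p below 0.05 and at least a 2-fold change in 1 of the first 5 comparisons, the most abundant chains, and up to 4 genes per list and comparison with the largest change. Other members appear where they complete a role. The members and lists were chosen with earlier results of these data known.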

Additional observations from a re-analysis of the deposited data

Results flagged for a closer look

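The OPN effect differed between STIA and naive fibroblasts, by the test of the difference itself at an edgeR adjusted p below 0.05, for 10 of the 27 tested genes. As the effect in STIA cells minus that in naive cells (log2), the differences were -2.40 for Itga8, -1.60 for Itga2, -1.33 for Itga6, -1.22 for Itga10, -1.16 for Itgav, -0.56 for Itga1, -0.53 for Itgb1, 0.53 for Itga7, 0.83 for Itga2b and 1.16 for Itgb8. The Itga1 difference was lost with limma-voom (adjusted p 0.0569), where only the 4 groups were fitted (0.134) and without any library except OPN replicate 2 and STIA-with-OPN replicate 3 (0.0514 to 0.115). None of the other 9 differences was lost in an alternative that tested the gene.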

How the results depend on the processing

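Over 9 comparisons 144 fold changes of the 27 tested genes passed, 118 of them in every alternative that tested the gene, and none reversed. Calls were lost with DESeq2 (1), limma-voom (4), RLE sizes (2), library totals alone (6), no filter (5), a mean of at least 5 CPM (2 of 119), only the groups compared (6 of 142) and a replicate block (3). The count of genes called moved by over 1.5 times only for OPN in STIA cells, where it was 4: 11 with no filter on low counts, 12 with only the groups compared, and 0 to 3 leaving out single libraries. Under the replicate block that count was 3. Leaving out single libraries gave 22 to 22 calls for FGF2, 11 to 14 for OPN, 16 to 18 for both factors, 12 to 13 for STIA and 17 to 21 for the interaction. Values that did not pass changed sign for Tln1 with FGF2 (0 to 0.1 leaving out single libraries, 0 without FGF2 replicate 3), Fermt2 with FGF2 (0.02 with library totals alone), Itga5 with both factors (-0.06 to 0.11 leaving out single libraries, lowest without joint replicate 3) and the source difference of the OPN effect for Itgb3 (-0.11 to 0.09 leaving out single libraries). The cause was not tested. With 3 counts worth 0.0743 to 0.109 CPM, Itgad and Itgb6 are too shallow for their fold changes to be read.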
